A study of Mus musculus with 42 samples.

Results

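The genes described here are 8 transcripts used as markers of tanycytes, namely *Rax*, *Lhx2*, *Vim*, *Nes*, *Gpr50*, *Dio2*, *Col23a1* and *Crym*. They were chosen by symbol, as the rows of a table of 37907 Ensembl gene identifiers that carry these names, and all 8 were found and passed the filter on low values (at least 1 RPKM in at least 4 libraries, which kept 33579 genes). RPKM scale the reads of a gene to its exon length and to the depth of the library. The samples were 42 RNA-seq libraries from 4 hypothalamic nuclei of wild-type male C57/BL6 mice, cut out by laser capture from stained frozen sections: the arcuate nucleus (ARC), the ventromedial nucleus (VMH), the dorsomedial nucleus (DMH) and the paraventricular nucleus (PVN). Food was either freely available to the mice or withheld for 24 hours before dissection, and no gene was altered in any of them. The labels give no age. There were 5 fed and 5 fasted libraries from the ARC, 6 and 6 from the VMH, 5 and 4 from the DMH, and 6 and 5 from the PVN. The labels do not say which nuclei came from the same mouse, so p-values between nuclei treat the libraries as independent. In captured tissue of this kind, fewer cells of a type and less RNA per cell cannot be told apart.

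Tanycytes are elongated glial cells that line the floor and lower walls of the third ventricle and send a long process into the ARC, the median eminence and the neighbouring nuclei. They move hormones and nutrients between cerebrospinal fluid, blood and the hypothalamus, they convert thyroid hormone to its active form, and in adult animals they keep features of neural progenitors. The 8 transcripts are used as their markers, but none is made by tanycytes alone.

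The deposited RPKM contain no zeros. Each gene has a smallest value, one per batch of libraries, which is what a library with no reads receives, and values rise above it in whole-read steps. The read number behind every member's value was recovered from these steps. Where no-read libraries showed it, the smallest value had a median of 1.46 RPKM over genes, above the 1 RPKM of the filter. Genes with few or no reads could thus pass the filter. They count in the shares of all genes given below, which are not shares of well-read genes alone. Estimated depth ran from 1.33 to 13.3 M reads, with fasted DMH libraries deepest (mean 7.39 M) and fed VMH libraries shallowest (mean 3.20 M). By these smallest values the libraries fell into 3 sets of 10, 16 and 16, whose means appear to have been aligned before deposit. They are called batches here: the study captured tissue in 3 batches, but the labels do not say which library was in which. The smallest set held no fasted DMH library. No set held more than 2 libraries of a group, so differences given within batches rest on 1 or 2 libraries a group. Markers of 3 nuclei sat where the labels place them: *Nr5a1*, which specifies VMH neurons, averaged 21.8 RPKM in fed VMH and at most 0.577 in the other fed nuclei, *Sim1*, which specifies PVN neurons, averaged 19.1 in fed PVN and at most 1.58 elsewhere in the fed libraries, and *Agrp*, the appetite-promoting peptide of the ARC, averaged 133 in fed and 409 in fasted ARC. The DMH was set apart less well by *Ppp1r17*, which averaged 49.6 in fed DMH and 18.9 in fed PVN, but 49.7 and 47.3 in the fasted ones. *Npvf*, another DMH marker, averaged 100.4 RPKM over the fed and fasted DMH libraries and at most 2.48 in any other nucleus.

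The first question was whether the tanycyte transcripts differ between nuclei. With limma on log2(RPKM + 1), 7 of the 8 members differed between nuclei in fed mice at an adjusted p (Benjamini-Hochberg over all genes tested) under 0.1, against 12.4% of all genes tested, and the same number did so in fasted mice, against 11.9%. *Rax* was the member that did not (adjusted p 0.707 fed, 0.515 fasted). The members did not share one pattern. By mean RPKM in fed mice, *Dio2*, *Col23a1*, *Crym* and *Nes* were highest in the ARC, *Gpr50* in the DMH, and *Lhx2* and *Vim* in the PVN, while *Rax* was near 1.07 RPKM in both ARC and VMH. Set against the mean of the other 3 nuclei, the ARC of fed mice was higher for 5 members (*Dio2*, *Col23a1*, *Crym*, *Gpr50* and *Nes*), against 2.38% of all genes, and lower for 0 members, against 2.24%. In fasted mice it was higher for 4 members (the same without *Crym*), against 2.9%, and again lower for 0, against 2.65%. Over the 8 members the median difference was 0.59 on the log2 scale in fed and 0.65 in fasted mice. The median of all genes tested, which include genes with few or no reads, was at 0.

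**Figure D1:**
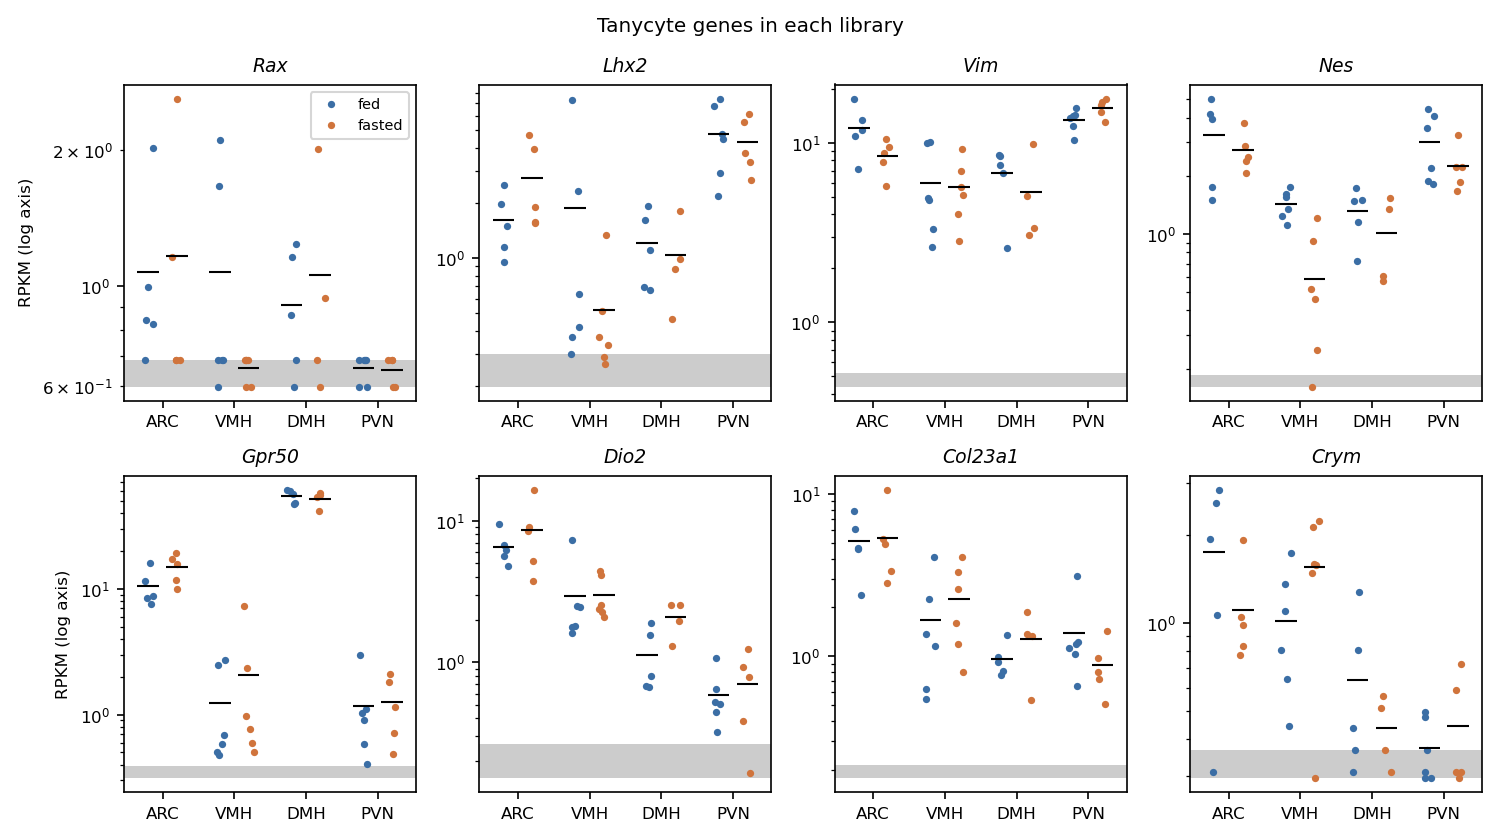
RPKM of each tanycyte gene (log axis, 1 panel a gene) in the 42 libraries, by nucleus, with fed in blue and fasted in orange. Points are libraries, black bars group means and the grey band the range of values that stand for no reads. *Gpr50* is highest in the DMH, *Dio2* and *Col23a1* in the ARC, *Lhx2* and *Vim* in the PVN, and most *Rax* points lie in the band.

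**Figure D2:**
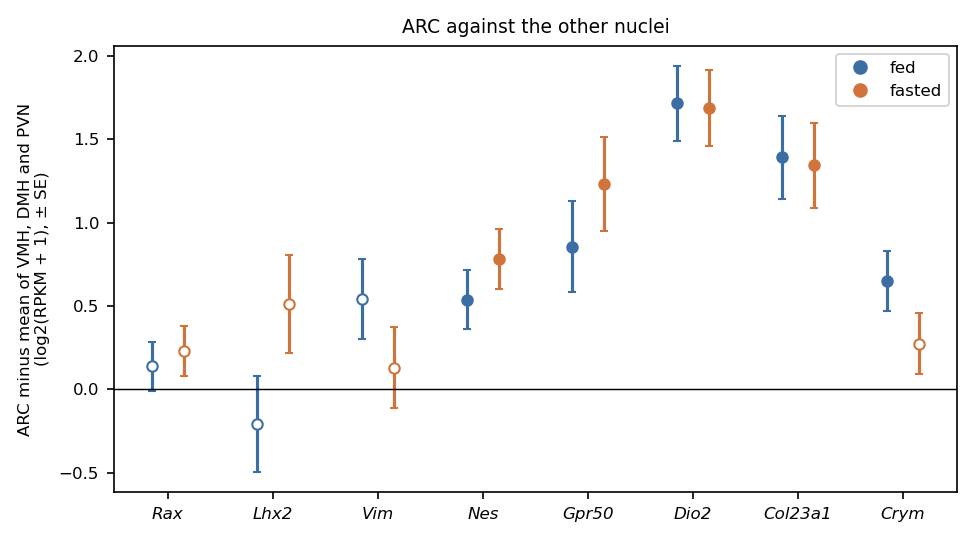
Difference between the ARC and the mean of the VMH, DMH and PVN for each gene in fed (blue) and fasted (orange) mice, in log2(RPKM + 1), with standard errors. Filled points have an adjusted p under 0.1 in limma, 5 in fed and 4 in fasted mice. The fed values run from -0.21 for *Lhx2* to 1.72 for *Dio2*.

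Pairs of nuclei in fed mice gave 23 differences among the 48 that the 8 members allow. ARC and VMH differed for 5 members (7.9% of all genes), ARC and DMH for 4 (2.79%), ARC and PVN for 5 (4.13%), VMH and DMH for 1 (5.24%), VMH and PVN for 4 (9.84%), and DMH and PVN for 4 (3.42%). In fasted mice 22 of 48 passed: 5 between ARC and VMH (8.91% of all genes), 4 between ARC and DMH (3.21%), 3 between ARC and PVN (4.19%), 2 between VMH and DMH (3.94%), 5 between VMH and PVN (9.24%) and 3 between DMH and PVN (3%). The member separating most pairs was *Gpr50*, with 5 of 6 in either state, and *Rax* separated 0 of 6.

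*Rax* encodes a homeodomain transcription factor of the eye field that stays on in adult tanycytes, and it is among the most tanycyte-restricted of the 8 names. Here it was barely detected. In all 42 libraries together it had 78 reads, and 29 libraries had 0. The ARC held 43 of these reads in 6 of its 10 libraries, the DMH 25 in 5 of 9 and the VMH 10 in 2 of 12. No PVN library had a *Rax* read, and 0 in 51.6 M reads allows up to 0.0581 RPM (reads of the gene per M reads of the library; counting error only, 3 counts), while the ARC libraries pooled had 0.877 RPM. The 6 fasted VMH libraries were also at 0, which allows up to 0.13 RPM. Fed ARC libraries had 0, 2, 2, 2 and 10 reads and fasted ARC libraries 0, 0, 0, 9 and 18. So 1 library in each state carried most of the ARC signal, and the states overlapped. With voom, a limma fit, on recovered reads with the batch as a term, the fed VMH was above the fed PVN (adjusted p 0.053), on the 10 VMH reads of 2 libraries. *Rax* is also uncertain by its position, since 27.4% of its exon bases overlap *Raxos1*, and 24.7% of its 50-base words occur in other genes.

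*Lhx2* (GRCm38 chr2:38339281-38369733), a LIM-homeodomain factor needed for tanycyte and eye development, was read far more often, with 1634 reads in 40 of 42 libraries. It was highest in the PVN. Fed PVN libraries ran from 2.19 to 7.41 RPKM with a median of 4.63, and fasted PVN libraries held 2.66, 3.34, 3.75, 5.52 and 6.17. Fed ARC libraries held 0.954, 1.14, 1.49, 1.97 and 2.50, and fasted ARC libraries 1.55, 1.57, 1.90, 3.96 and 4.69. The fed PVN and ARC libraries overlapped at one end, and the fasted ones more widely. In the fed VMH the values ran from 0.297, which is no read, to 7.27, with a median of 0.528, and in the fasted VMH from 0.263 to 1.33, with a median of 0.353. Fed DMH libraries lay between 0.671 and 1.93.

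In fed mice *Lhx2* was higher in the PVN than in the DMH by 1.34 ± 0.34 (SE, log2(RPKM + 1), limma adjusted p 0.0215), than in the VMH by 1.30 ± 0.33 (adjusted p 0.00701) and than in the ARC by 1.09 ± 0.34 (adjusted p 0.0815; 0.123 with voom on recovered reads). The other 3 fed pairs did not pass. In fasted mice the PVN was higher than the VMH and DMH, and the ARC higher than the VMH by 1.25 ± 0.34 (adjusted p 0.0168), while ARC and PVN did not separate (adjusted p 0.64). One fed VMH library, replicate 1, held 79 of the 124 fed VMH reads of *Lhx2*. Without it the fed VMH lay below the PVN by 1.69 ± 0.27 in place of 1.30. Within the batches, the fed PVN stood above the mean of the other nuclei by 0.295, 2.04 and 1.45. The smallest of these is in the batch that holds this VMH library, whose summed reads for astrocyte markers (12 of 14 with recovered reads, 2812 RPM against 1848 to 2010 in the other fed VMH libraries), microglial markers (8 of 10, 277 against 110 to 144) and pericyte and leptomeningeal markers (507 against 276 to 326) were also the highest of its group. Their part in the result was not tested.

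*Vim* (chr2:13573927-13582826) encodes vimentin, an intermediate filament of tanycytes, ependymal cells, endothelial cells and immature glia. It had reads in every library and was highest in the PVN. Fed PVN libraries ran from 10.4 to 15.7 RPKM with a median of 13.9, and fasted PVN libraries held 13.1, 14.8, 16.2, 17.0 and 17.5. Next came the ARC, with 7.19, 10.9, 11.8, 13.4 and 17.6 in fed and 5.76, 7.80, 8.76, 9.49 and 10.5 in fasted mice. In the fasted state every PVN library was above every ARC library, and in the fed state the ranges overlapped. The share of all genes that separate these fasted nuclei in this way was not counted. The fasted difference between PVN and ARC, 0.84 ± 0.30, did not pass (limma adjusted p 0.15). VMH means were 5.96 ± 3.28 (SD, n = 6) fed and 5.65 ± 2.27 (n = 6) fasted, and DMH means 6.79 ± 2.46 (n = 5) and 5.35 ± 3.16 (n = 4).

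Between nuclei in fed mice, *Vim* was higher in the PVN than in the VMH by 1.18 ± 0.27 (limma adjusted p 0.00296) and than in the DMH by 0.96 ± 0.28 (adjusted p 0.0619; 0.104 with voom on recovered reads), and higher in the ARC than in the VMH by 1.004 ± 0.28 (adjusted p 0.0229). The ARC and PVN of fed mice differed by 0.17 ± 0.28, within their spread. In each batch the fed PVN was above the mean of the other nuclei, by 0.597, 0.904 and 0.793. Summed markers of vessels moved the same way. The 12 endothelial markers summed to between 318 and 467 RPM in fed PVN and to between 124 and 247 in the other fed libraries, and the 10 pericyte and leptomeningeal markers to between 498 and 674 against 209 to 507. Most of the latter sum was *Rgs5*, a pericyte gene, at 438 RPM in the PVN and 166.5 to 215 in the other nuclei. *Pdgfrb*, *Kcnj8*, *Abcc9* and *Vtn* of the same list were also highest in the PVN. *Acta2* was not, at 23.7 RPM in the VMH and 6.18 to 7.17 in the other nuclei. *Dcn* and *Col1a1*, of leptomeningeal cells, were lowest in the PVN, at 7.65 RPM against 24.6 in the ARC and 1.63 against 2.92. Of the other such markers, *Lum* was lowest in the VMH, at 1.07 RPM against 1.32 in the PVN. *Col1a2* was highest in the PVN, at 8.27 RPM against 7.13 to 8.04 in the other nuclei. In fasted mice the endothelial sums were 332 to 399.9 in the PVN and 124 to 227 in the other nuclei. Their part in the *Vim* and *Lhx2* results was not tested.

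**Figure D3:**
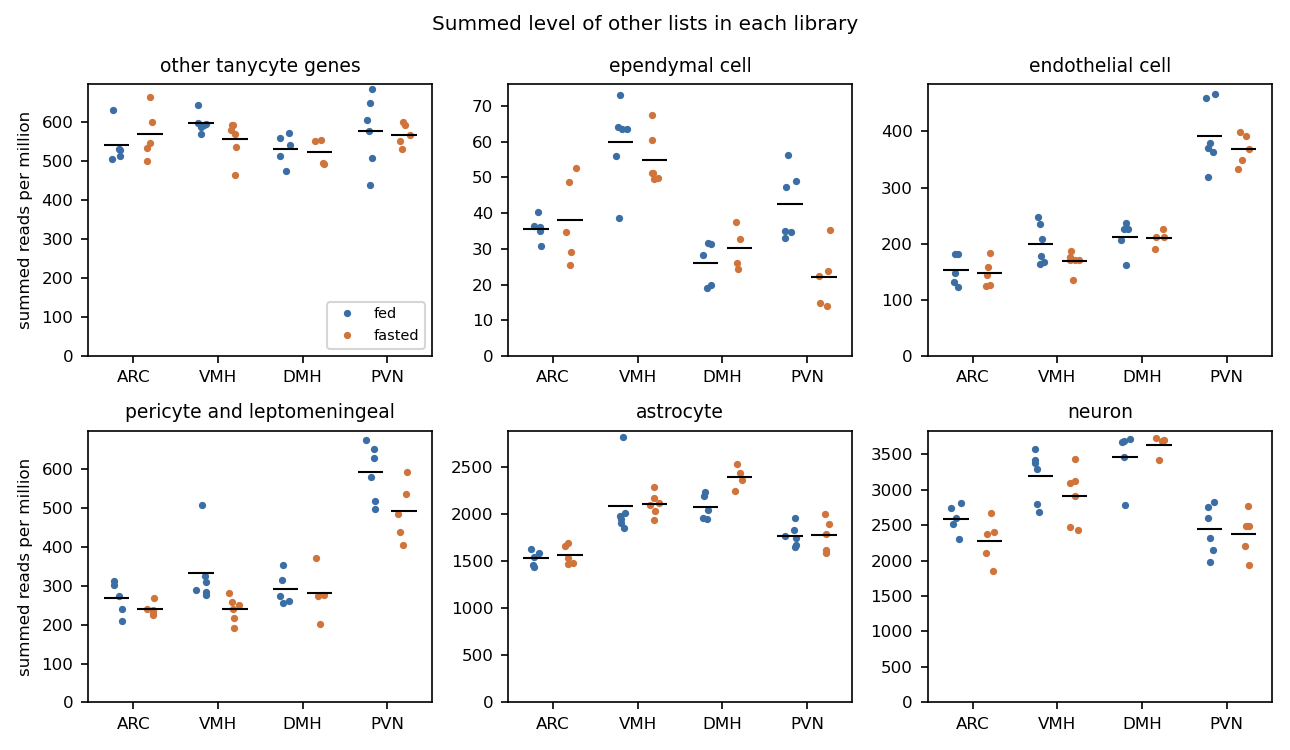
Summed RPM (reads per M reads) of 6 other gene lists in the 42 libraries, by nucleus, with fed in blue and fasted in orange. Points are libraries and bars group means. Endothelial and pericyte sums are highest in the PVN, with fed endothelial sums of 318 to 467, and the sum of 19 other tanycyte genes lies between 438 and 684 in every library.

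*Nes* (chr3:87971078-87980451) encodes nestin, a filament of neural progenitors that tanycytes keep and that endothelial cells also make. ARC and PVN held similar levels. Fed ARC libraries held 1.50, 1.75, 3.94, 4.16 and 5.01 RPKM and fasted ARC libraries 2.07, 2.37, 2.52, 2.84 and 3.77. Fed PVN libraries ran from 1.81 to 4.44 with a median of 2.87, and fasted PVN libraries held 1.66, 1.86, 2.21, 2.22 and 3.27. The 2 nuclei overlapped in both states, although 2 of the 5 fasted PVN libraries lay below every fasted ARC library. VMH and DMH were lower, with fed means of 1.43 ± 0.24 (SD, n = 6) and 1.31 ± 0.39 (n = 5). In fed mice *Nes* separated 4 of 6 pairs, with the ARC above the VMH by 0.73 ± 0.21 (limma adjusted p 0.0255) and above the DMH by 0.82 ± 0.22 (adjusted p 0.0388), the PVN above the VMH by 0.67 ± 0.20 and above the DMH by 0.75 ± 0.21. With voom on recovered reads none of these 4 fed pairs passed (adjusted p 0.101, 0.132, 0.115 and 0.154, in that order). ARC against PVN was 0.07 ± 0.21. Against the mean of the other nuclei, the fed ARC was higher by 0.54 ± 0.18 (adjusted p 0.0955), and within the batches by 0.806, 1.08 and -0.0732, so one batch did not show it. The fed call was lost in 15 of the 22 fits that left a library out, with values of 0.39 to 0.71. In fasted mice the ARC was higher by 0.78 ± 0.18 (adjusted p 0.00519).

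*Gpr50* (chrX:71663667-71669257) encodes an orphan receptor related to the melatonin receptors, present in tanycytes and in DMH neurons. It had 8240 of its 10354 reads in the DMH. Fed DMH libraries held 47.3, 47.9, 57.0, 59.6 and 60.5 RPKM and fasted DMH libraries 41.5, 53.4, 55.2 and 57.7. Fed ARC libraries held 7.58, 8.49, 8.77, 11.6 and 15.98, and fasted ARC libraries 10.02, 11.7, 15.8, 17.3 and 19.2. Every DMH library was above every ARC library, and in the fed state every DMH library was above all others, as for 0.0893% of the genes tested. In the VMH and PVN most libraries were near the no-read value of 0.313 to 0.391, with fed medians of 0.632 and 0.972. Each library there still had at least 1 read, and the highest was 7.25 in the fasted VMH.

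Between the fed nuclei *Gpr50* was higher in the DMH than in the PVN by 4.755 ± 0.33 (limma adjusted p 6.41e-13), than in the VMH by 4.745 ± 0.33 (adjusted p 7.92e-13) and than in the ARC by 2.31 ± 0.34 (adjusted p 3.25e-05). The ARC in turn was above the VMH by 2.43 ± 0.33 and above the PVN by 2.44 ± 0.33, and VMH and PVN differed by 0.01 ± 0.31. The order DMH, ARC, then VMH and PVN together held in fasted mice, where the DMH was above the ARC by 1.77 ± 0.36 (adjusted p 0.00311). In each batch the fed DMH stood above the mean of the other nuclei, by 3.29, 4.27 and 4.13. Because the DMH is one of the nuclei averaged, the fed ARC was above the mean of the others by only 0.86 ± 0.27 (adjusted p 0.0847), a call that 13 of the 22 fits leaving a library out lost, with values of 0.70 to 0.95. Of the 3 genes of the melatonin receptor family, 2 passed the filter on low values and *Gpr50* alone was called.

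*Dio2* (chr12:90724552-90738438) encodes the type 2 deiodinase, the enzyme that turns thyroxine into active thyroid hormone, and it is made by tanycytes and astrocytes. It was highest in the ARC. Fed ARC libraries held 4.78, 5.67, 6.17, 6.73 and 9.44 RPKM, and fasted ARC libraries 3.77, 5.15, 8.43, 9.07 and 16.4. In the VMH fed libraries ran from 1.61 to 7.34 with a median of 2.13 and fasted ones from 2.08 to 4.38 with a median of 2.46. Only VMH fed replicate 1, at 7.34, reached into the fed ARC range, and the other fed VMH libraries stopped at 2.49. The DMH held 0.670, 0.674, 0.800, 1.55 and 1.88 in fed and 1.29, 1.95, 2.53 and 2.53 in fasted mice, and fed PVN libraries ran from 0.321 to 1.07 with a median of 0.515.

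The fed ARC was above the mean of the other nuclei by 1.72 ± 0.22 (limma adjusted p 1.59e-06), and the fasted ARC by 1.69 ± 0.23 (adjusted p 2.59e-06). Within the batches the fed difference was 2.16, 1.47 and 1.81. By pairs, the fed ARC was above the VMH by 1.06 ± 0.27 (adjusted p 0.00862), above the DMH by 1.85 ± 0.28 and above the PVN by 2.24 ± 0.27, and the VMH was above the PVN by 1.18 ± 0.25 (adjusted p 0.00139). VMH and DMH did not pass (adjusted p 0.102), nor did DMH and PVN (0.683), so the order below the ARC is not settled between neighbours. Without VMH fed replicate 1 the fed ARC stood above the VMH by 1.30 ± 0.24. On recovered reads, where no constant of 1 RPKM damps low values, the fed ARC was higher than the mean of the others by 2.83 on the log2 scale.

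*Col23a1* (chr11:51289920-51583918) encodes a membrane-spanning collagen and has been used as a tanycyte marker. Its fed ARC libraries held 2.39, 4.59, 4.62, 6.12 and 7.81 RPKM and its fasted ARC libraries 2.83, 3.33, 4.94, 5.30 and 10.5. The fed VMH ran from 0.546 to 4.12 with a median of 1.26, the fed DMH from 0.769 to 1.36 and the fed PVN from 0.656 to 3.12 with a median of 1.16. The lowest fed ARC library lay below the highest of the VMH and PVN, and above all DMH libraries. The fed ARC was above the mean of the other nuclei by 1.39 ± 0.25 (limma adjusted p 0.000272) and the fasted ARC by 1.34 ± 0.25 (adjusted p 0.000518). It was above each nucleus singly in fed mice, by 1.25 (VMH), 1.57 (DMH) and 1.35 (PVN), and none of the other 3 pairs passed. Within the batches the difference was 1.47, 0.955 and 1.74.

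*Crym* (chr7:120186380-120202111) encodes mu-crystallin, a cytosolic protein that binds thyroid hormone. With 362 reads in 29 of 42 libraries it had the fewest reads after *Rax*. Fed ARC libraries had 0, 10, 21, 34 and 42 reads and fasted ARC libraries 8, 9, 10, 12 and 26. The PVN had 16 reads in all, in 4 of 11 libraries, and the DMH 30 in 5 of 9, against 172 in the ARC and 144 in the VMH. The fed ARC was above the mean of the other nuclei by 0.65 ± 0.18 in log2(RPKM + 1) (limma adjusted p 0.0345), by 0.992, 0.376 and 0.737 within the batches, and above the PVN by 0.90 ± 0.22 (adjusted p 0.00952). The first of these calls was lost without ARC fed replicate 1, 2 or 5 (0.53, 0.50 and 0.60), and with voom on recovered reads. In fasted mice the VMH was above the DMH by 0.77 ± 0.23 (adjusted p 0.0614) and above the PVN by 0.77 ± 0.22 (adjusted p 0.0192). At the other pairs *Crym* did not pass in either state with limma on RPKM, but voom also called the VMH above the PVN in fed mice (adjusted p 0.0195) and the ARC above the PVN in fasted mice (adjusted p 0.0761). Whether the order of nuclei changes with fasting was tested by the interaction, which gave an adjusted p of 1.

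*Dio2* and *Col23a1* were both highest in the ARC and *Gpr50* differed most between nuclei, so the 250 bases before their RefSeq starts (build GRCm38.p6) are shown, with capitals where a searched motif lies. RefSeq promoter entries of 6 of the 8 members were used, and those of *Rax* and *Crym*, if any, were not searched for motifs. Motifs were chosen with the values known and searched on both strands, and no matches overlapped in the windows of the members: TATAAA, the TATA box, which 12.4% of 32851 promoters hold in this window, TGACGTCA, the cyclic AMP response element (1.55%), AGGTCA, a core of nuclear receptor sites (14%), and TAATTA, a homeodomain core (4.84%). The *Dio2* window is at chr12:90739039-90739288 on the minus strand, the *Col23a1* window at chr11:51289670-51289919 on the plus strand, and the *Gpr50* window at chrX:71663417-71663666 on the plus strand.
Dio2: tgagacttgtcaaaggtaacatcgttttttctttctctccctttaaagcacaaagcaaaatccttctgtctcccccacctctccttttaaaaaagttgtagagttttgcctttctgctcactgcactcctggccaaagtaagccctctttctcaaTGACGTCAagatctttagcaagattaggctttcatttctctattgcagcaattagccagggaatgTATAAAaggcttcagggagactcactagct
Col23a1: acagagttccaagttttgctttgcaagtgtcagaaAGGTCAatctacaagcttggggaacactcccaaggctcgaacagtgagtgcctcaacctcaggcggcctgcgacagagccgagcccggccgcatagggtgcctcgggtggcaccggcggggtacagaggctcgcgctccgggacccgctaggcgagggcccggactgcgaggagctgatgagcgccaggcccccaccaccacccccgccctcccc
Gpr50: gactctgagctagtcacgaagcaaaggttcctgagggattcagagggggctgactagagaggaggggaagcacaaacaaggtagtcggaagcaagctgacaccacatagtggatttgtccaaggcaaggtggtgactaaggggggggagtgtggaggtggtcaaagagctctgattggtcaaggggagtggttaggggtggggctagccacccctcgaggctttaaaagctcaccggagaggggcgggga
The *Dio2* window holds TGACGTCA and, closer to the start, TATAAA, the *Col23a1* window holds AGGTCA far upstream, and the *Gpr50* window holds none of the 4 motifs. Among the 7 promoter entries used, which hold none of *Rax* or *Crym*, 2 hold TATAAA (*Vim* and *Dio2*) and 0 hold TAATTA. *Dio2* is also poor in GC, at 41.6%, where the median promoter has 52.4%, and *Col23a1* is rich, at 66.0%. A match in letters is a description only.

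The second question was whether a fast changes these transcripts. At an adjusted p under 0.1, 0 of the 8 members changed in the ARC (0.0566% of all genes did), in the VMH (0.131%), in the DMH (0.0238%) or in the PVN (0.0715%). An unadjusted limma p under 0.05 was found in 1 of the 32 comparisons, *Nes* in the VMH, where 7.31% of all genes had one (7.5% in the ARC, 6.48% in the DMH and 5.53% in the PVN). With voom on recovered reads 0 members passed as well. *Rax* in the PVN had no read in either state. Among the other 31 comparisons the fasted mean was higher in 16 and lower in 15, and the fed and fasted libraries overlapped in all 31 (they did not overlap for 0.742%, 0.277%, 1.15% and 0.402% of all genes in the ARC, VMH, DMH and PVN). The 95% intervals of the 32 changes stretched from -1.23 to 1.19 on the log2(RPKM + 1) scale. The interaction of nucleus and fasting gave 0 members (0.00596% of all genes), with a smallest unadjusted p of 0.217.

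**Figure D4:**
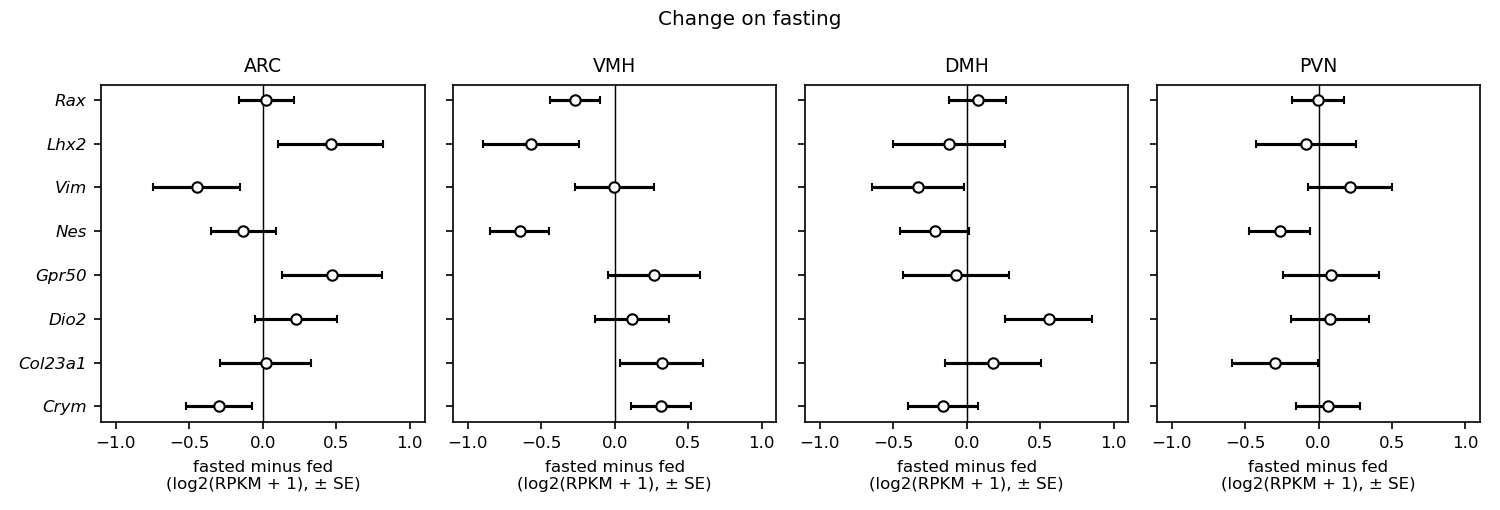
Change from fed to fasted mice of each gene in each nucleus, in log2(RPKM + 1), with standard errors. Open points have an adjusted p over 0.1 in limma, which holds for all 32. The lowest is *Nes* in the VMH at -0.65.

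*Nes* in the VMH came nearest. Fed VMH libraries ran from 1.11 to 1.74 RPKM with a median of 1.44, and fasted VMH libraries from 0.161, which is no read, to 1.20 with a median of 0.490. The highest fasted library lay just inside the fed range, and all 6 fasted libraries were below the fed mean. The difference was -0.65 ± 0.20 (limma adjusted p 0.330; exact two-sided permutation p 0.00433 before any adjustment over the 32), and within the batches it was -0.856, -0.853 and -0.232. *Aqp4*, the water channel of astrocyte endfeet, and *Fabp7*, a fatty acid binding protein of glia, were the 2 of 14 astrocyte markers that changed in the fasted VMH, by -0.94 and -1.31 (limma adjusted p 0.0477 and 0.0555). The 12 of the 14 with recovered reads, without *Slc1a2* and *Slc7a10*, summed to 1935 to 2281 RPM in fasted and 1848 to 2812 in fed VMH.

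For the other members the differences were smaller relative to their spread. *Dio2* in the DMH was higher in the fasted state by 0.56 ± 0.30 (adjusted p 0.852, exact permutation p 0.0635), with all 4 fasted libraries above the fed mean, and by 0.503 and 0.463 in the 2 batches that hold both states. Estimated depth ran from 4.78 to 13.3 M reads in the fasted and from 2.94 to 5.06 M in the fed DMH libraries, so the depths overlapped. The *Vim* difference in the ARC, fasted minus fed, was -0.45, with all 5 fasted libraries below the fed mean (exact permutation p 0.0952), but in one batch it was higher, by 0.0283. *Gpr50* in the ARC was higher by 0.47 (exact permutation p 0.0952), and by 0.684, 0.672 and 0.16 within the batches. *Lhx2* in the ARC was higher by 0.46 (exact permutation p 0.175), and by 0.26, 0.578 and 0.445 within the batches. Of the 32 comparisons, 10 kept one sign in all batches that hold both states. The *Lhx2* difference in the VMH was -0.57, or -0.19 without VMH fed replicate 1. 

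Across the 42 libraries the members fell into groups by how their log2 values varied together, a description that reflects the nuclei as well as depth and batch. *Dio2* and *Col23a1* went together most closely (Pearson r 0.762), with *Crym* nearer to them (0.535 and 0.407) than to the rest. *Lhx2*, *Vim* and *Nes* formed another set (0.61, 0.53 and 0.49). *Gpr50* and *Rax* were not tied closely to any member, with highest values of 0.298 for their own pair and 0.333 for *Rax* with *Dio2*.

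**Figure D5:**
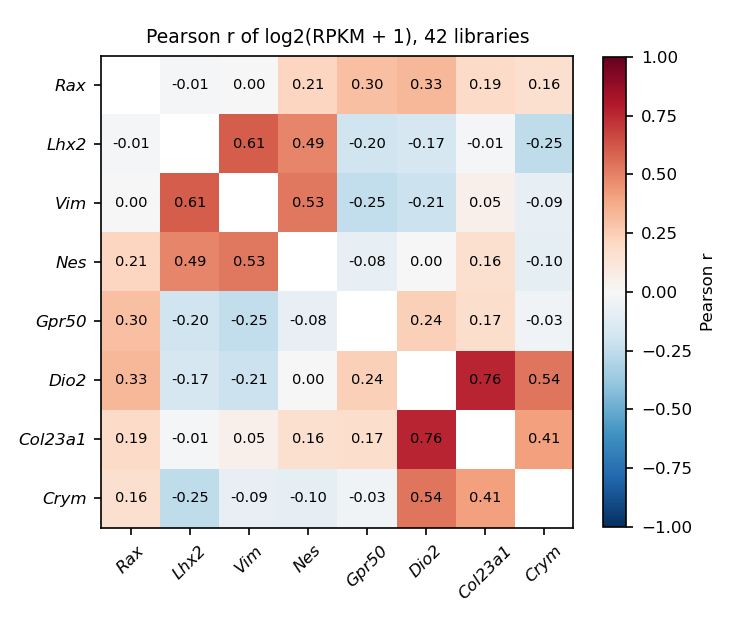
Pearson r of log2(RPKM + 1) between each pair of tanycyte genes over the 42 libraries, from -1 (blue) to 1 (red). The highest value, 0.76, is between *Dio2* and *Col23a1*, and *Lhx2*, *Vim* and *Nes* are between 0.49 and 0.61 with each other.

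Among genes averaging at least 5 RPKM, those most like *Gpr50* were *Pgr15l*, an orphan receptor (0.918), *Dlx1*, a homeodomain factor of GABA neurons (0.888), and *Gad1*, the enzyme that makes GABA (0.887). Those most like *Dio2* were *Pcdh20*, *Cited1* and *Arhgap36* (0.878, 0.876 and 0.847). *Col23a1* was closest to ARC neuropeptide genes, *Pomc* (0.776) and *Npy* (0.752), and to *Tbx3* (0.752), a factor of the ARC. *Vim* and *Lhx2* shared *Ssr4* (0.824 and 0.779) and *Ctsz* (0.79 and 0.75) among their 3 closest genes, and *Nes* was closest to *Nampt* (0.789), *Eif4g2* (0.774) and *Hspb8* (0.766). *Crym* reached 0.69, with *Gnaz*, and *Rax* 0.6, with *Gm24916*.

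Other genes used as tanycyte markers were counted as a check on the label. Of 20, 12 differed between nuclei in fed mice (12.4% of all genes did), and 4 were higher (2.38%) and 3 lower (2.24%) in the fed ARC than in the mean of the others. Higher were, for example, *Scn7a*, an atypical sodium channel of glia, by 1.25 ± 0.20 (limma adjusted p 3.81e-05) and *Fndc3c1* by 0.87 ± 0.15. Below the mean of the others were, for example, *Trhde*, which breaks down thyrotropin-releasing hormone, at -1.03, and *Sox2*, a factor of neural progenitors and glia, at -1.02. The 19 with recovered reads summed to 506 to 631 RPM in fed ARC and 438 to 684 in fed PVN, ranges that overlapped. The largest parts were *Prdx6*, *Dkk3* and *Vcan*, so genes with few reads weigh little in the sum. Over fed and fasted libraries these were at 108, 81.5 and 70.4 RPM in the ARC and 74.0, 102 and 87.1 in the PVN. Left out of the sum was *Mia*, which averaged 5.12 RPKM in the ARC and 1.42 in the PVN. Against the same shares of all genes, in the thyroid hormone list 3 of 21 tested genes were higher in the fed ARC, *Dio2* and *Thrb*, a thyroid hormone receptor (0.54 ± 0.14), among them, and 3 lower, *Trh* and *Trhde* among them. In the list of progenitor and eye-field factors, 4 of 22 were higher, namely *Six6* by 2.19, *Six3* by 1.34, *Nkx2-1* by 1.27 and *Lhx1* by 1.06, and 1 was lower. The 12 ependymal markers gave 1 higher and 0 lower, and 11 of them, without *Rarres2*, summed to 30.8 to 40.3 RPM in fed ARC and 38.6 to 73.1 in fed VMH.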

How the data were processed

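RNA from laser-captured nuclei was amplified and sequenced as single-end reads. Per the labels and the study's methods, the authors called bases with CASAVA 1.7, mapped reads to GRCm38 with TopHat2 2.0.11, listed Cufflinks 2.2.1, edgeR and limma, and left outlier samples out. The deposited RPKM (37907 genes, 42 libraries) matched 2 to the power of log2 RPKM with reads added and batch means removed, with no group term. The number of reads added was the same for every gene of a library. It ran from 1.455 to 14.5 between libraries, and depth was estimated in proportion to it. The batches were inferred from the values. With no group term, a batch that holds unequal groups shifts their levels. Reads were recovered from each gene's steps (whole within 0.02 reads in 94.9% of genes). Differences were fitted here with limma 3.58.1 in R 4.3.3 on log2(RPKM + 1) over all 8 groups, with trended variances, and called at an adjusted p under 0.1. Tested on simulated data, the fasting test in the ARC found 77.5% of 111 genes changed by 1 on the log2 scale and 96.6% of 89 changed by 2, among 33579 genes. It also called 24 unchanged genes. The changed genes were drawn from those with a mean log2(RPKM + 1) above 1, which *Rax* and *Crym* do not reach, and the simulated noise was normal. Alternatives were another pseudocount, filters, quantile scaling, library weights, batch, depth and replicate terms, voom on recovered reads, and single libraries left out. All 8 members are described in each comparison, with at most 4 genes of another list, smallest adjusted p first. Members and lists were chosen with earlier results of these data known. Gene positions are from GENCODE M21. No pair of libraries in a group looked like a repeat deposit (chi-square per gene 4.46 or more over 91 pairs).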

Additional observations from a re-analysis of the deposited data

Results flagged for a closer look

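In 61 sets of libraries (8 genes in 8 groups, without 3 in which *Rax* had no read), Dixon's test singled out 9 single libraries at its 95% level, where chance gives about 3.05. All 9 were high. The test was run on RPKM rather than on a log scale, and the 3.05 holds only for normally distributed values. In the VMH, fed replicate 1 was apart for both *Lhx2* (7.27 RPKM, the others 0.297 to 2.32) and *Dio2* (7.34, the others 1.61 to 2.49). In the fasted VMH, replicate 1, the shallowest library at 1.33 M reads, was apart for *Gpr50* (7.25 RPKM from 27 reads, the others 0.506 to 2.34), and replicate 6 for *Lhx2* (1.33, the others 0.263 to 0.515). In the fed PVN, replicate 1 was apart for *Gpr50* (3.001, the others 0.407 to 1.0999) and replicate 4 for *Col23a1* (3.12, the others 0.656 to 1.23). In the ARC, fed replicate 2 and fasted replicate 4 were apart for *Rax* (2.02 and 2.60, from 10 and 18 reads), and fasted replicate 3 for *Crym* (1.91, from 26 reads). The causes were not tested.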

How the results depend on the processing

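In every alternative tried, 0 members passed for fasting in any nucleus and 0 for the interaction. The count of members differing between nuclei was 7 in every alternative but one, in both states: requiring a mean of at least 2 RPKM kept only 5 members, and all 5 differed. The members higher in the fed ARC numbered 5, but 3 with a mean of at least 2 RPKM, and 3 with voom on recovered reads, with or without a batch term (*Dio2*, *Col23a1* and *Gpr50* with it). Leaving out one library gave 2 to 5. It was 2 without ARC fed replicate 1 or 2, and 3 without ARC fed replicate 5, DMH fed replicate 1 or 4, PVN fed replicate 6 or VMH fed replicate 3, 4, 5 or 6. Over those 22 fits *Nes* lost its call in 15, *Gpr50* in 13 and *Crym* in 3. In fasted mice the number stayed at 4 when any library was left out. Pairwise differences in fed mice ran from 19 to 25, against 23. The 19 were with voom and a batch term, which lost 6 of the 23 (4 of *Nes*, and 1 each of *Lhx2* and *Vim*) and gained 2 (*Rax* and *Crym*). Of 1166 alternative values of single members, 1125 kept their direction where called and their side of the threshold, 41 lost the call, and none that was called changed sign. The replicate numbers of the titles gave no sign of pairing nuclei of one state. Same-numbered libraries correlated there at -0.134 to 0.0899 in 58 pairs, and the others at -0.109 to 0.0993. Fed and fasted libraries come from different mice, and same-numbered ones correlated at -0.112 to 0.0539 in 20 pairs. With a replicate block 4 members were higher in the fed ARC and 22 pairwise differences passed. Voom and depth terms were chosen after seeing the data. No read of *Rax* was found in 29 of 42 libraries and none of *Crym* in 13, the deepest library among both, so their values rest on few reads.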
